A study of Homo sapiens with 6 samples.

Results

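MicroRNAs are made and put to work by a short chain of proteins, and the 10 genes described here encode its core in human cells. In the nucleus, the Microprocessor, built from the RNase III enzyme DROSHA and the RNA-binding protein DGCR8, cuts hairpins out of long primary transcripts. Exportin-5 (XPO5) carries the hairpins to the cytoplasm, where DICER1 with its partner TARBP2 trims them to a duplex. An Argonaute protein (AGO1 to AGO4) keeps one strand as a guide, and a GW182 protein such as TNRC6A joins the Argonaute to the enzymes that deadenylate and repress the bound mRNA. Of the 4 Argonautes, AGO2 is the one best known for slicing a fully paired target, and the Argonautes also load transfected siRNAs. The genes were chosen by name as the rows of the expression tables whose identifiers belong to these 10 symbols, out of 60676 genes listed. All 10 reached the expression minimum, a mean of at least 1 FPKM in either group, which 13966 genes passed. FPKM is the number of fragments per length of gene, scaled to the total of the library, and it is used below wherever levels of different genes are compared.

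The study followed CyCoNP, a long noncoding RNA found in neural progenitors and examined as a partner of microRNAs and of the NCAM1 mRNA. Total RNA was sequenced from SK-N-BE cells, an established human neuroblastoma line that takes on neuronal traits with retinoic acid, after 1.5 days in differentiation medium holding 10 μM retinoic acid. The 3 si-SCR libraries came from cells that had received a scrambled siRNA and the 3 si-CyCoNP libraries from cells that had received an siRNA pool against CyCoNP. Both groups were thus transfected with siRNA and treated with retinoic acid, and no untreated or undifferentiated cells are part of the comparison. With 1 pool, an effect of losing CyCoNP and any other effect of those siRNAs cannot be told apart. The labels do not say whether the replicates were separate cultures, so p-values measure the spread between these libraries, which may be technical.

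The knockdown was visible in the targeted gene, LINC02381, which had 274, 208 and 315 counts in si-SCR and 20, 30 and 12 counts in si-CyCoNP, or 7.30% of the control level. Each library held between 3762009 and 4799407 counts, and the groups did not differ in depth beyond the replicate spread (exact permutation test, two-sided, p = 0.9). Across all tested genes si-SCR replicate 3 lay closer to the si-CyCoNP libraries than the other si-SCR libraries did, at -20.9 on the first principal component against -35.3 and -35.6, with the si-CyCoNP libraries between 29.3 and 32.0. All 10 markers of sympathetic neuroblasts were expressed, with a summed level of 1984 to 2440 FPKM in si-SCR and 1247 to 1333 FPKM in si-CyCoNP, and 7 of them passed the test as lower. Of 9 markers of other cell types, 4 were at 0 in every library (LYZ, PECAM1, ALB and SOX10). The summed level of these markers was 1.04 to 1.39 FPKM in si-SCR and 1.99 to 2.28 FPKM in si-CyCoNP, and 1 of them, COL1A1, was tested and was higher (log2 fold change 1.68, adjusted p = 8.59e-06). The part of these shifts in the results below was not tested, and in bulk RNA fewer cells of a type and less RNA per cell cannot be told apart.

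In si-CyCoNP cells the machinery shifted in both directions. DROSHA, AGO1 and XPO5 were higher, AGO2, AGO4, TNRC6A, AGO3 and DGCR8 were lower, and DICER1 and TARBP2 did not pass the test. Passing means an adjusted p under 0.05 in the quasi-likelihood test of edgeR on the counts, with the Benjamini-Hochberg adjustment made across the 13966 tested genes. Among all tested genes 14.2% passed as higher and 14.2% as lower, against 3 and 5 of the 10 genes. The shares over all tested genes given here and below were not matched to the 10 genes in count level. The tested genes include 383 annotated microRNA precursor genes. Scaling by library totals alone, without a correction for composition, changed the split over all genes from 1982 higher and 1990 lower to 2465 higher and 1574 lower. The median log2 fold change of the 10 genes was -0.15, beside 0.0053 over all genes tested. The study also asked for a log2 fold change beyond 1, which 2.28% of all genes passed as higher and 2.98% as lower. With edgeR 0 of the 10 genes passed both criteria, with an adjusted or an unadjusted p, and DESeq2 also gave 0, while 8 had an unadjusted p under 0.05. Without si-SCR replicate 3 the DROSHA value was 1.01 and 1 gene passed both criteria.

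The levels themselves spanned more than 10-fold. In si-SCR cells DICER1 had the highest level of the 10 genes, at 27.6 ± 1.84 FPKM (SD, n = 3), above 90.4% of tested genes. AGO2 followed at 24.8 ± 1.97 FPKM, and AGO4 came last at 1.95 ± 0.184 FPKM, above 24.0% of tested genes. In this order the libraries of neighbouring genes overlapped for TNRC6A and XPO5, and for TARBP2, DGCR8 and DROSHA, so these places are not settled by 3 libraries. The gene lengths behind the FPKM ran from 4090 bases for TARBP2 to 21153 bases for AGO3. What part these lengths play in the order was not tested. After CyCoNP knockdown, by group means, DROSHA moved from place 7 to place 2, AGO2 from place 2 to place 4 and TNRC6A from place 3 to place 6, while DICER1 stayed first. In si-CyCoNP the libraries of DROSHA overlapped those of XPO5, at place 3. Those of TNRC6A overlapped those of TARBP2, at place 5. The new places of DROSHA and TNRC6A are thus not settled either.

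**Figure D1:**
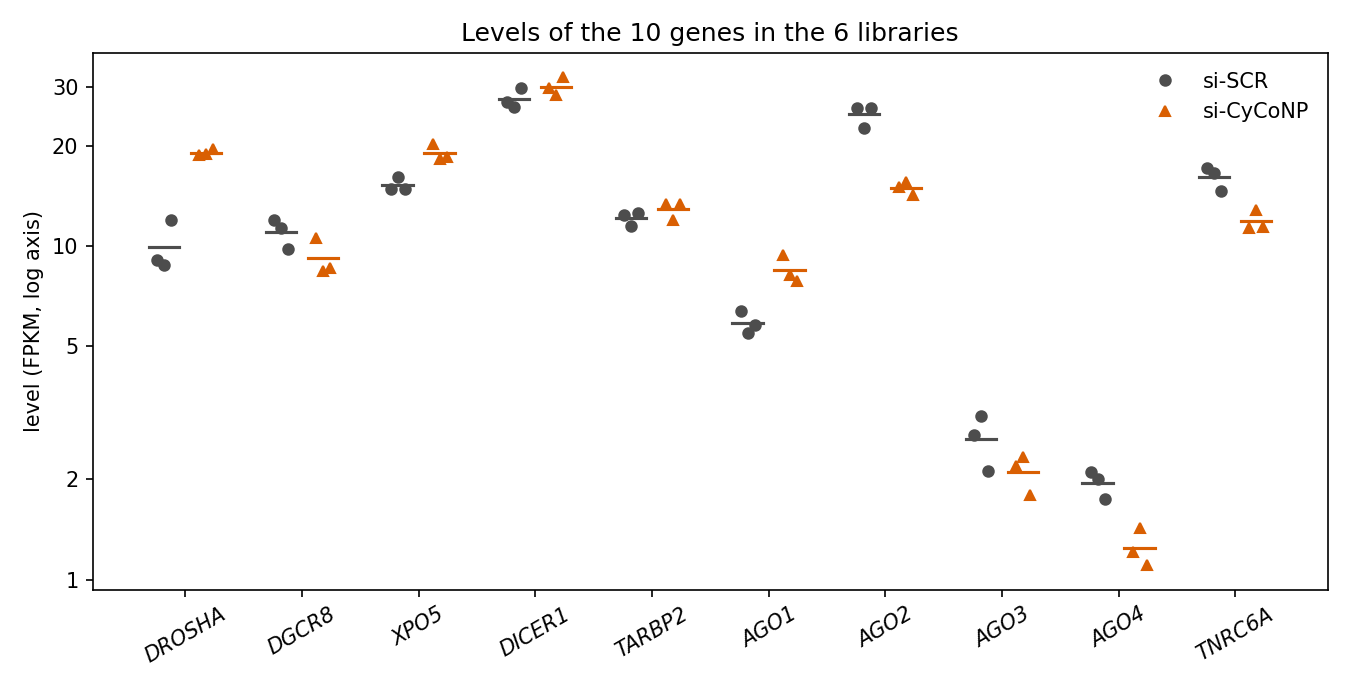
Level of each of the 10 genes in FPKM (log axis) in the 3 si-SCR libraries (grey circles) and the 3 si-CyCoNP libraries (orange triangles), with a bar at each group mean. The groups stand apart for DROSHA, XPO5 and AGO1, which are higher in si-CyCoNP, and for AGO2, AGO4 and TNRC6A, which are lower, and they overlap for the other 4 genes.

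Both subunits of the Microprocessor passed the test, in opposite directions. DROSHA (GRCh38 chr5:31400494-31532196, minus strand), the catalytic subunit, stood at 9.07, 8.75 and 11.96 FPKM in si-SCR and at 18.7, 18.9 and 19.5 FPKM in si-CyCoNP. Every si-CyCoNP library was above every si-SCR library, and si-SCR replicate 3 was the highest of its group. The log2 fold change was 0.87 ± 0.10 (SE, 95% interval 0.66 to 1.08, adjusted p = 1.72e-07), a 1.83-fold higher level. FPKM were not corrected for library composition, whereas fold changes were, so that a ratio of FPKM means differs slightly from the fold change of the fit.

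DGCR8 (chr22:20080221-20111877, plus strand), which binds the hairpin, stood at 11.9, 11.3 and 9.77 FPKM in si-SCR and at 10.6, 8.40 and 8.57 FPKM in si-CyCoNP. The groups overlapped, because si-CyCoNP replicate 1 lay above si-SCR replicate 3. The log2 fold change was -0.33 ± 0.11 (SE, 95% interval -0.56 to -0.09, adjusted p = 0.0312). This call was lost with DESeq2 (adjusted p = 0.0652), with scaling by library totals (adjusted p = 0.0896) and without 4 of the 6 libraries (si-SCR replicates 1 and 2 and si-CyCoNP replicates 2 and 3, adjusted p between 0.0927 and 0.155).

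The DGCR8 transcript is itself known as a substrate of the Microprocessor, since it carries hairpins in its exons. These give the mature microRNAs below, shown because they lie within a member gene, with the seed (bases 2 to 8, the part that pairs with targets) in capitals. The sequences are from RefSeq (GRCh38). The miR-1306 sequences fall in coding exon sequence at chr22:20086072-20086093 and chr22:20086112-20086129, and miR-3618 in exon sequence that is not coding, at chr22:20085797-20085818, all on the strand of DGCR8.
hsa-miR-1306-5p: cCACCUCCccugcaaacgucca
hsa-miR-1306-3p: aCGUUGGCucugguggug
hsa-miR-3618: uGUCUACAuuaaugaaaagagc
Both hairpin genes, MIR1306 and MIR3618, had 0 counts in all 6 libraries. The counting assigned a fragment to a gene only where no other gene of the same strand shared it, so a fragment shared by a hairpin gene and DGCR8 would be assigned to neither.

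Set against each other within each library, DROSHA over DGCR8 was 0.760, 0.771 and 1.22 for si-SCR libraries and 1.77, 2.25 and 2.28 for si-CyCoNP libraries. The mean ratio of levels went from 0.918 ± 0.264 to 2.10 ± 0.286 (SD, n = 3 each) with no overlap. The exact permutation test gave p = 0.1, two-sided, the smallest value that 3 against 3 libraries allow, for this ratio and for each of the other 5 sums and ratios given below, which were chosen after values had been seen. Adjusted over these 6 measures each p stayed at 0.1.

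At the export and dicing steps the fold changes were smaller. XPO5 (chr6:43522334-43576038, minus strand) stood at 14.8, 16.05 and 14.9 FPKM in si-SCR and at 20.2, 18.2 and 18.4 FPKM in si-CyCoNP, so that every si-CyCoNP library was above every si-SCR library. Its log2 fold change was 0.25 ± 0.087 (SE, adjusted p = 0.0336). The call was lost with DESeq2 (adjusted p = 0.0663), with an offset for gene length (adjusted p = 0.161) and without any single one of replicates 1 and 3 of either group (4 libraries, adjusted p between 0.0605 and 0.190).

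DICER1 (chr14:95086228-95158010, minus strand) was the most abundant of the genes in both groups. It stood at 27.0, 26.1 and 29.7 FPKM in si-SCR and at 29.8, 28.3 and 32.0 FPKM in si-CyCoNP, with overlapping groups. Its log2 fold change was 0.055 with a 95% interval from -0.11 to 0.22 (adjusted p = 0.654). Changes within these bounds are not excluded by the interval. TARBP2 (chr12:53500921-53506431, plus strand), the double-stranded RNA-binding partner of DICER1, lies 619587 bases before LINC02381 on the same strand. It stood at 12.4, 11.5 and 12.5 FPKM in si-SCR and at 13.3, 11.97 and 13.3 FPKM in si-CyCoNP. The log2 fold change of 0.017 had an interval from -0.21 to 0.25 (adjusted p = 0.935). DICER1 over DROSHA fell in the comparison of library ratios from 2.81 ± 0.290 to 1.58 ± 0.0716 (SD, n = 3 each), with no overlap.

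The 4 Argonaute genes did not move as a group. AGO1 was higher and AGO2, AGO3 and AGO4 were lower in si-CyCoNP. AGO2 (chr8:140520156-140635633, minus strand) stood at 26.0, 22.6 and 26.0 FPKM in si-SCR and at 15.1, 15.6 and 14.2 FPKM in si-CyCoNP. The lowest si-SCR library was well above the highest si-CyCoNP library. Its log2 fold change was -0.80 ± 0.081 (SE, 95% interval -0.97 to -0.63, adjusted p = 1.90e-08), which left 57.4% of the control level. The edgeR, DESeq2 and limma fits all called it, and its log2 fold change lay between -0.86 and -0.69 over the 17 alternatives tried. AGO2 shares exon sequence on its own strand with 1 unnamed gene that had 5 counts over all libraries, beside 8213 for AGO2. A fragment shared by both genes would be assigned to neither, so these counts do not show how many AGO2 fragments the overlap removed.

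The other 3 Argonaute genes stand in a row on the plus strand of chromosome 1, in the order AGO4 (chr1:35808016-35857890), AGO1 (chr1:35869808-35930532) and AGO3 (chr1:35930718-36072500). Only 185 bases part AGO1 from AGO3, and 11917 bases part AGO4 from AGO1. Of these neighbours, the gene in the middle was higher and those on either side were lower. AGO1 stood at 6.40, 5.47 and 5.80 FPKM in si-SCR and at 9.42, 8.20 and 7.83 FPKM in si-CyCoNP, with no overlap. Its log2 fold change was 0.46 ± 0.099 (SE, adjusted p = 0.000833), and it kept its direction and call under all 17 alternatives.

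AGO4, the least abundant of the 10 genes, stood at 2.10, 2.01 and 1.75 FPKM in si-SCR and at 1.21, 1.43 and 1.10 FPKM in si-CyCoNP, also with no overlap. Between 34 and 67 counts per library lay behind these values. The log2 fold change of -0.71 ± 0.21 (SE, adjusted p = 0.0113) therefore has a wide 95% interval, from -1.14 to -0.28, and on log2(FPKM + 1) limma gave an adjusted p of 0.111. AGO3 stood at 2.72, 3.09 and 2.12 FPKM in si-SCR and at 2.20, 2.33 and 1.79 FPKM in si-CyCoNP, and its groups overlapped because si-SCR replicate 3 was low. Its log2 fold change was -0.39 ± 0.14 (SE, adjusted p = 0.0321), a call lost with DESeq2 (adjusted p = 0.0674), with library totals alone (adjusted p = 0.0804), with limma on log2(FPKM + 1) (adjusted p = 0.332) and on leaving out si-SCR replicate 1 (adjusted p = 0.0691), the second si-SCR library (adjusted p = 0.218) or the third of si-CyCoNP (adjusted p = 0.151).

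**Figure D2:**
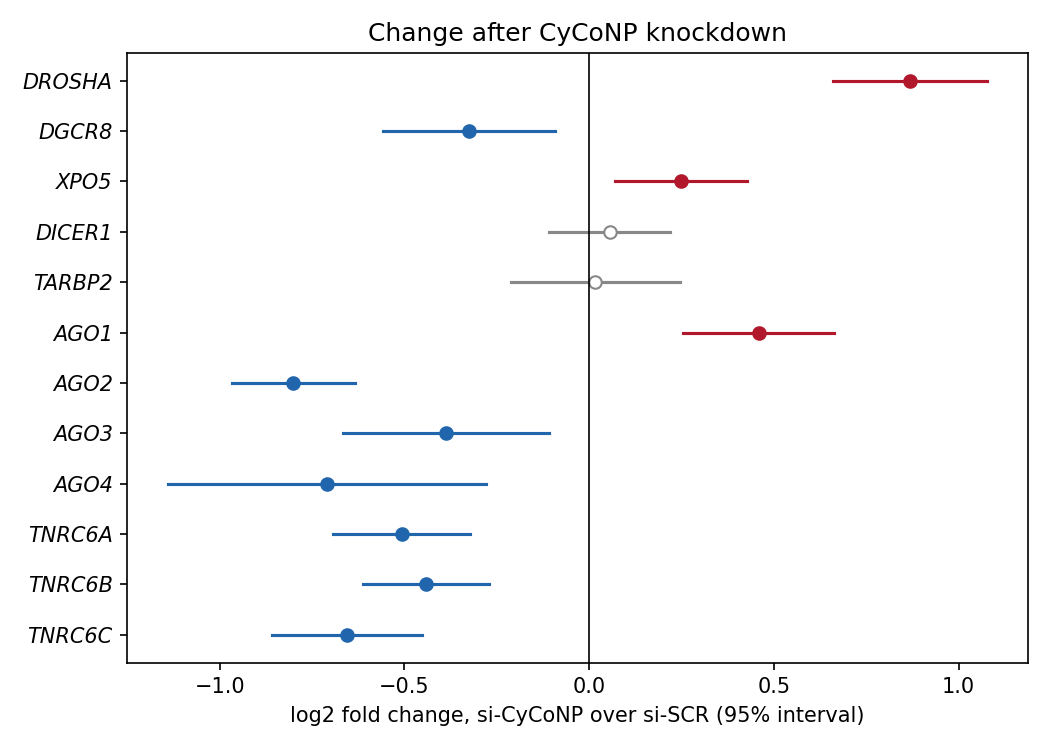
Log2 fold change, si-CyCoNP over si-SCR, with its 95% interval from the edgeR fit, for the 10 genes and for TNRC6B and TNRC6C, filled red (higher) or blue (lower) where the adjusted p was under 0.05 and open grey otherwise. DROSHA has the highest value, 0.87, AGO2 the lowest, -0.80, and the intervals of DICER1 and TARBP2 include 0.

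Counted as a pool, Argonaute transcripts were scarcer and differently composed after knockdown. The summed level of AGO1 to AGO4 was 37.2, 33.1 and 35.6 FPKM in si-SCR and 27.9, 27.5 and 24.9 FPKM in si-CyCoNP, or 75.8% of the control mean, with no overlap. AGO2 made up 69.8%, 68.1% and 72.9% of this sum for si-SCR and 54.0%, 56.6% and 57.0% for si-CyCoNP. AGO1 made up 17.2%, 16.5% and 16.3% for si-SCR and 33.8%, 29.8% and 31.4% for si-CyCoNP. AGO1 gained 15.0 percentage points of share and AGO2 lost 14.4 points. The shares add up to the whole in each library, so gains and losses of share must balance. In level, the mean of AGO1 rose from 5.89 to 8.48 FPKM, while that of AGO2 fell from 24.8 to 15.0 FPKM. For the shares of AGO1 and AGO2 the groups did not overlap. The exact permutation test gave p = 0.1 for each, two-sided, the smallest possible, or 0.233 when adjusted over the 7 shares computed.

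The mean shares of the rarer Argonautes moved by under 1 point. AGO3 held 7.52% ± 1.71 in si-SCR and 7.83% ± 0.635 in si-CyCoNP (SD, n = 3 each, exact permutation p = 0.9), and AGO4 held 5.53% ± 0.584 and 4.65% ± 0.467 (exact permutation p = 0.2). AGO2 over AGO1 fell from 4.22 ± 0.230 to 1.77 ± 0.155 in the library ratios, and AGO2 over DICER1 from 0.901 ± 0.0532 to 0.5001 ± 0.0535, both with no overlap. Fragments that map to more than one place were dropped by the authors, so any stretch identical between paralogs would be missing from each of them.

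**Figure D3:**
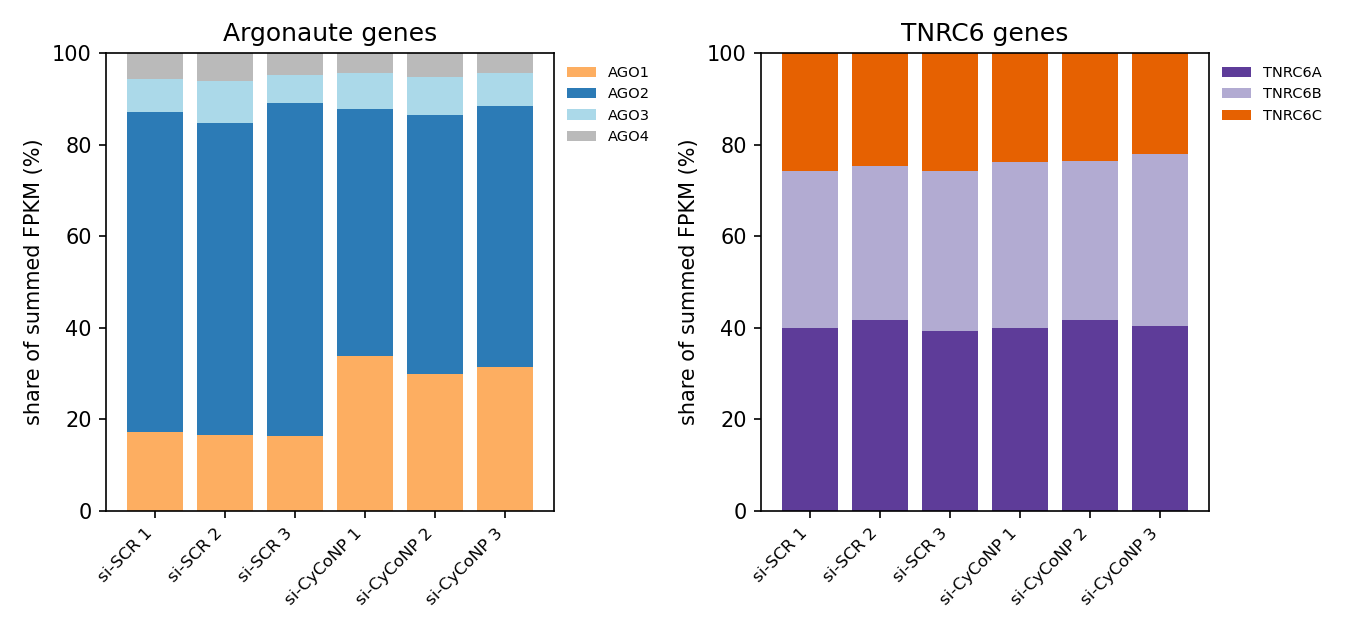
Share of each Argonaute gene in the summed FPKM of AGO1 to AGO4 (left) and of each TNRC6 gene in the summed FPKM of TNRC6A to TNRC6C (right), in percent, 1 bar per library. AGO1 takes 16.3% to 17.2% in si-SCR and 29.8% to 33.8% in si-CyCoNP, and the TNRC6 shares stay within a few points.

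TNRC6A (chr16:24610209-24827632, plus strand), the GW182 scaffold among the 10 genes, stood at 17.1, 16.5 and 14.6 FPKM in si-SCR and at 11.4, 12.8 and 11.4 FPKM in si-CyCoNP. All si-CyCoNP libraries were below all si-SCR libraries. The log2 fold change was -0.51 ± 0.090 (SE, 95% interval -0.69 to -0.32, adjusted p = 8.01e-05). Its paralogs, which share the role of scaffold, passed in the same direction, with log2 fold changes of -0.44 for TNRC6B (adjusted p = 0.00016) and -0.66 for TNRC6C (adjusted p = 9.07e-06).

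TNRC6B stood at 14.6, 13.3 and 12.96 FPKM in si-SCR and at 10.4, 10.7 and 10.5 FPKM in si-CyCoNP. TNRC6C stood at 11.04, 9.81 and 9.63 FPKM in si-SCR and at 6.77, 7.29 and 6.23 FPKM in si-CyCoNP. Unlike the Argonautes, these paralogs thus all moved down with no overlap between groups. Their summed level was 42.7, 39.6 and 37.2 FPKM in si-SCR and 28.5, 30.8 and 28.1 FPKM in si-CyCoNP, or 73.1% of the control mean. The make-up of this sum moved by 2.30 points or less, with TNRC6A at 40.3% ± 1.25 and 40.7% ± 0.923 of it (SD, n = 3 each, exact permutation p = 0.8). The TNRC6C share, 25.5% ± 0.635 in si-SCR and 23.2% ± 0.908 in si-CyCoNP, did not overlap between groups (exact permutation p = 0.1, adjusted 0.233).

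Of the 10 genes, 3 were higher and 3 lower with no overlap of FPKM between the groups, where 24.2% and 16.1% of all tested genes did the same. The calls of DROSHA, AGO1, AGO2 and TNRC6A held under all 17 alternatives, whereas those of DGCR8, XPO5, AGO3 and AGO4 did not. Without si-SCR replicate 3 the log2 fold changes were 1.01 for DROSHA, 0.43 for AGO1, -0.79 for AGO2, -0.81 for AGO4, -0.59 for TNRC6A, -0.55 for AGO3 and -0.43 for DGCR8, all past the threshold, and 0.21 for XPO5, which was not (adjusted p = 0.0765).

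The wider pathway was read from 8 lists of 165 genes, 96 of which were tested. Of these 19 were higher and 14 lower, with a median log2 fold change of 0.012, beside the 14.2% of all genes in each direction. The counts given below for single lists are to be read beside the same share. Around the Microprocessor, among 10 cofactors, SRRT (0.25, adjusted p = 0.0292), which links the cap-binding complex to primary transcripts, and ERH (0.25, adjusted p = 0.0466), a small partner of DGCR8, were higher, and NCBP1 (-0.26, adjusted p = 0.0245), the large cap-binding subunit, was lower. These calls were lost under 6 (SRRT), 11 (ERH) and 7 (NCBP1) of the 17 alternatives. The helicases DDX5 (-0.15, adjusted p = 0.173) and DDX17 (-0.15, adjusted p = 0.137) did not pass.

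Among 14 partners of DICER1 and factors that load small RNA into Argonautes, 6 were higher and 1 lower, with a median log2 fold change of 0.21. The higher genes were AHSA1, PTGES3, FKBP4, CDC37, DNAJA2 and HSP90AB1, the last 4 named after their values were seen, as are HSP90AA1 (0.26, adjusted p = 0.0847) and HSPA8 (0.21, adjusted p = 0.134), which did not pass. AHSA1, which activates the HSP90 ATPase, stood at 26.1, 29.8 and 36.1 FPKM in si-SCR and at 46.4, 48.8 and 58.9 FPKM in si-CyCoNP (log2 fold change 0.67, adjusted p = 2.13e-05). PTGES3, the p23 cochaperone, had a log2 fold change of 0.38 (adjusted p = 0.00127). TSNAX, a subunit of the C3PO nuclease, was the lower gene (-0.32, adjusted p = 0.0403), a call lost under 10 of 17 alternatives. In AHSA1 and PTGES3 si-SCR replicate 3 was again the highest control library.

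Among 9 tested factors of precursor and microRNA turnover, 1 was higher and 3 lower. ZSWIM8, the ubiquitin ligase adaptor of target-directed microRNA decay, which acts on Argonaute proteins, stood at 9.81, 10.0 and 7.99 FPKM in si-SCR and at 6.05, 5.53 and 5.28 FPKM in si-CyCoNP. Its log2 fold change was -0.78 (adjusted p = 8.33e-06). LIN28B, the inhibitor of let-7 maturation, stood at 47.4, 48.9 and 48.1 FPKM in si-SCR and at 34.4, 38.2 and 40.1 FPKM in si-CyCoNP (-0.43, adjusted p = 0.000229). Neither gene overlapped between groups. The nuclease SND1 was higher (0.36, adjusted p = 0.00169), and the exonuclease XRN2, named after its value was seen, was lower (-0.22, adjusted p = 0.043). LIN28A was below the expression minimum.

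Downstream of the Argonautes, 12 GW182 paralogs and translational repressors held 1 higher and 4 lower genes. Besides TNRC6B and TNRC6C, the helicase MOV10 fell (-0.81, adjusted p = 1.79e-05), from 6.33, 6.29 and 7.29 FPKM to 4.16, 3.87 and 3.85 FPKM. FMR1, encoding the fragile X protein and named after its value was seen, was lower at -0.61 (adjusted p = 0.000369), while its paralog FXR2 was higher (0.40, adjusted p = 0.00679) and FXR1 did not pass (-0.048, adjusted p = 0.721). Of 13 deadenylase subunits 1 was higher (CNOT9, 0.28, adjusted p = 0.0136), 1 was lower (CNOT8, -0.39, adjusted p = 0.0178) and 11 did not pass. Of 10 decapping and decay factors 7 did not pass, and the others were higher: EDC3 (0.45, adjusted p = 0.00176), DCP2 (0.31, adjusted p = 0.027) and LSM14A (0.24, adjusted p = 0.0385), the last named after its value was seen. The calls of CNOT9, CNOT8 and DCP2 were lost under 3, 5 and 8 of the 17 alternatives.

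**Figure D4:**
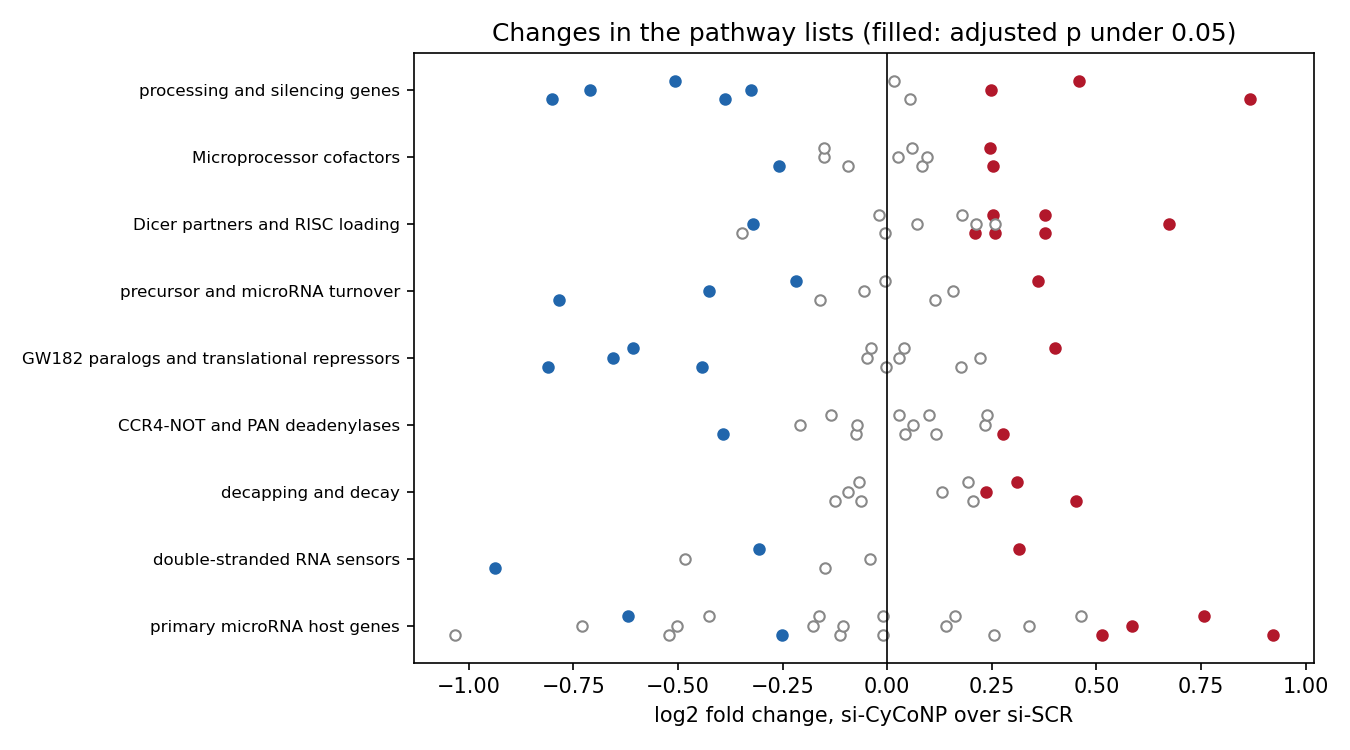
Log2 fold change, si-CyCoNP over si-SCR, of every tested gene in the 10-gene set and in the 8 pathway lists (1 point per gene, rows offset so that points can be told apart), filled red or blue where the adjusted p was under 0.05. No point that passed lies beyond a log2 fold change of 1, the lowest passing value is that of OAS3, -0.94, and the highest that of MIR4435-2HG, 0.92.

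The input of the chain was visible only as host transcripts, the long RNAs from which hairpins are cut. Of 84 host genes named as such in the annotation, 22 were expressed enough to be tested. Of the tested hosts 4 were higher and 2 lower, beside 14.2% of all tested genes in each direction. MIR4435-2HG (0.92, adjusted p = 2.29e-06) and MIR99AHG (0.59, adjusted p = 0.000411) were higher and MIRLET7BHG (-0.62, adjusted p = 0.000258) and MIR137HG (-0.25, adjusted p = 0.0406) lower. The call of MIR137HG was lost under 8 of 17 alternatives, and those of MIR4435-2HG and MIR99AHG under 2, both limma fits on FPKM. MIR4458HG (0.76, adjusted p = 0.00578) and MIR17HG (0.51, adjusted p = 0.00937), named after their values were seen, were the other higher genes.

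Several of these hosts carry microRNAs with the same seed. The sequences of let-7 type are shown because their hosts went in opposite directions, and those of MIR17HG because this host gives a cluster of related microRNAs, with bases 2 to 8 in capitals. They are from RefSeq (GRCh38). MIRLET7BHG, which was lower, holds let-7b on chromosome 22 and a copy of let-7a, MIR99AHG, which was higher, holds let-7c on chromosome 21, and MIR4458HG, which was higher, holds miR-4458 on chromosome 5.
hsa-let-7a-5p: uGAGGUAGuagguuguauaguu
hsa-let-7b-5p: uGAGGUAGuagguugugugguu
hsa-let-7c-5p: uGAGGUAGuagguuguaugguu
hsa-miR-4458: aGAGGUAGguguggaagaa
hsa-miR-17-5p: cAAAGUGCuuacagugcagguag
hsa-miR-20a-5p: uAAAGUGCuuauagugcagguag
hsa-miR-19a-3p: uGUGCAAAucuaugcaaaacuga
hsa-miR-19b-3p: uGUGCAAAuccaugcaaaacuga
The first 4 share the seed GAGGUAG, the next pair AAAGUGC and the last pair GUGCAAA. Of 7 host genes with a microRNA of the seed GAGGUAG, 5 were tested, 2 were higher, 1 was lower and 2 did not pass (MIRLET7A1HG at 0.14 and MIRLET7IHG at -0.43). MIRLET7BHG stood at 9.35, 7.98 and 10.1 FPKM in si-SCR and at 6.11, 6.12 and 6.57 FPKM in si-CyCoNP, and MIR99AHG at 1.69, 2.12 and 2.25 FPKM in si-SCR and at 2.97, 3.95 and 2.62 FPKM in si-CyCoNP, with no overlap for either. MIR17HG stood at 6.72, 5.71 and 5.32 FPKM in si-SCR and at 8.01, 8.98 and 9.59 FPKM in si-CyCoNP, with no overlap. These values count the host RNA, not the mature microRNAs.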

How the data were processed

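The 6 libraries were grouped by their titles. The authors prepared stranded total RNA libraries after ribosomal RNA depletion, trimmed reads (Trimmomatic 0.39, Cutadapt 3.2), removed ribosomal reads (Bowtie2 2.4.2) and aligned the rest to GRCh38 with STAR 2.7.7a, whose gene counting gave the deposited counts of uniquely mapped fragments. The authors' deposited FPKM scale these by gene length and library total.

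Counting used strand: 28.1% of 726 genes that an exon on the opposite strand encloses had a count, against 6.56% of 930 enclosed on their own strand (two-sided Fisher's exact test, p = 6.07e-33).

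Genes whose group mean reached 1 FPKM in si-SCR or si-CyCoNP were tested with edgeR 4.0.16 (TMM, quasi-likelihood) in R 4.3.3. The 17 alternatives were DESeq2 1.42.0, 3 other scalings, 2 other filters, a replicate block, each library left out, limma 3.58.1 on log2(FPKM + 1) or log2(FPKM + 0.1), and offsets for gene length without or with GC content. Shares and ratios were compared by exact permutation of libraries, adjusted by Benjamini-Hochberg. The scripts were tested on simulated data. Positions and overlaps come from GENCODE, microRNA sequences from RefSeq. Counts include PCR duplicates, so the error was taken from the replicates (SD or SE).

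All 10 genes, LINC02381, the TNRC6 paralogs and, per list and direction, up to 2 passing genes of smallest p were named. The members and lists were chosen with earlier results of these data known. The values of some genes of these lists are not reported here.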

Additional observations from a re-analysis of the deposited data

How the results depend on the processing

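The calls of DROSHA, AGO1, AGO2 and TNRC6A held under all 17 alternatives. The log2 fold change of DGCR8 lost its call at -0.33 with DESeq2, -0.26 with library totals, -0.24 on log2(FPKM + 1) and -0.26 on log2(FPKM + 0.1). XPO5 lost it at 0.24 with DESeq2, 0.18 with a gene length offset and 0.15 with an offset for GC content and gene length, which was added after seeing the data. AGO3 lost it at -0.40 with DESeq2, -0.32 with library totals, -0.23 on log2(FPKM + 1) and -0.31 on log2(FPKM + 0.1), and AGO4 at -0.39 and -0.61 on these scales. TARBP2 turned to -0.059 with the length offset and -0.064 with GC content and length. Genes of the 10 that were lower numbered 3 with DESeq2, 3 with library totals and 2 on either FPKM scale. Pathway genes that were higher numbered 11 with either offset, and those that were lower 8 with library totals and 8 on either FPKM scale. Over all genes 1118 and 1113 were lower on log2(FPKM + 1) and log2(FPKM + 0.1). The cause of these differences was not tested.

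Leaving out 1 library at a time, DGCR8 ranged from -0.45 to -0.25, XPO5 from 0.19 to 0.29, DICER1 from -0.0016 (without si-CyCoNP replicate 3) to 0.10, TARBP2 from -0.016 to 0.072 (below 0 without replicate 2 of si-SCR or replicates 1 or 3 of si-CyCoNP) and AGO3 from -0.55 to -0.26. The lower genes of the 10 numbered 3 to 5 (3 without si-SCR replicate 1 or 2 or si-CyCoNP replicate 3), and pathway genes 12 to 22 higher (12 without si-CyCoNP replicate 2) and 9 to 18 lower (9 without si-SCR replicate 2). The difference in share ranged from -0.48 to 1.21 points for AGO3 (below 0 without si-SCR replicate 3) and from -0.18 to 1.04 for TNRC6A (below 0 without si-SCR replicate 3 or si-CyCoNP replicate 2), which was -0.12 from counts. Of 26 other genes named by rule, 15 kept their call throughout, 11 lost it under at least 1 of 17 alternatives (ERH under 11, TSNAX 10, DCP2 and MIR137HG 8, NCBP1 7, SRRT 6, CNOT8 5, CNOT9 and EIF2AK2 3, MIR4435-2HG and MIR99AHG 2) and 0 reversed.

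Libraries with the same number were not paired by the labels, and their deviations from the group means correlated at 0.0734 to 0.110, though all 6 correlated best with their own number. With the replicate block 3 of the 10 genes were higher and 5 lower, and 2403 and 2368 of all genes. AGO4, with 34 to 67 counts a library, is the gene whose value depth limits most.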

Other observations

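Sensors of double-stranded RNA bind the same kind of molecule as DICER1 and TARBP2 and were read as a further list. Of 12 such genes 6 were tested and 2 were lower. OAS3, which makes the activator of RNase L, stood at 13.2, 14.7 and 15.9 FPKM in si-SCR and at 6.87, 7.73 and 9.43 FPKM in si-CyCoNP (edgeR log2 fold change -0.94, adjusted p = 1.69e-07). EIF2AK2, the kinase PKR, which TARBP2 is known to bind, was lower (-0.31, adjusted p = 0.012), a call lost under 3 of 17 alternatives.

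The libraries held almost nothing of the hairpins themselves. Of 1850 annotated microRNA precursor genes, 468 had any count and 9 had more than 3 counts in every library. Precursors took 0.0148% ± 0.00055 of the counts in si-SCR and 0.0139% ± 0.0018 in si-CyCoNP (SD, n = 3 each, exact permutation test, two-sided, p = 0.4). Fragments that a hairpin shares with an exon of a host on the same strand are not assigned under the counting rule given above for DGCR8, and short hairpins are poorly caught in libraries of long fragments. MIR4492, whose mature product is shown because the study follows it as a partner of CyCoNP, had 0 counts in all libraries. Its sequence lies at chr11:118910765-118910781 (GRCh38, plus strand, RefSeq), with the seed in capitals.
hsa-miR-4492: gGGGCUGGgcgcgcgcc
NCAM1, the mRNA the study follows as a target, had 2906, 2711 and 2394 counts in si-SCR and 1580, 1274 and 1221 counts in si-CyCoNP (edgeR log2 fold change -1.11, adjusted p = 5.31e-09).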
